A study of Mus musculus with 21 samples.

Results

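The comparison described here set microglia, the macrophages resident in brain tissue, that had been transplanted and were taken from mouse brain after seizures against the same kind of cells taken after saline, across all genes that passed a filter on low counts. The seizure group had 4 libraries and the saline group 3, chosen by their labels, which made 7 of the 21 RNA-seq libraries of the study. Kainic acid, which activates glutamate receptors, was used to cause the seizures, and the study describes a collection 5 days later. All 7 libraries came from cells of the genotype Osb-GFP, sorted from brain. The labels call each library a biological replicate. They give no age, no genotype of the host and no statement on whether animals were pooled, and they do not say which host microglia were left. Every seizure library was labelled batch 1 and every saline library batch 2, so the treatment cannot be told apart from the batch in any value below. The other libraries used beside them held microglia-like cells derived from transplanted monocytes (MLC, Osb-GFP, 6 seizure and 3 saline libraries) and microglia of untransplanted mice (NoTx, CX3CR1-CreER+/-; CSF1R fl/fl, 3 seizure and 2 saline libraries), with the same split of batches.

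Microglia depend on the growth factor receptor CSF1R for their survival. They watch neurons through receptors for ATP and its products, such as P2RY12, and for the neuronal chemokine fractalkine, CX3CR1. They clear debris and dying cells through phagocytic receptors, complement and a large lysosomal compartment. After seizures they are known in general to change shape, to divide and to release cytokines. Antigen presentation by MHC class II is low in resting microglia and inducible by interferon.

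The libraries had the defining transcripts of their label. All 25 tested genes of a 27-gene homeostatic microglia list averaged at least 16 CPM (counts scaled to library size by TMM), and P2ry12 was at 11156 CPM or more in all 7 libraries. Total counts ran from 7.64 to 47.4 M in seizure libraries and from 38.9 to 45.4 M in saline libraries. After thinning to 1 equal depth, 14654, 15073, 11946 and 12788 genes were detected in the seizure libraries and 17110, 18053 and 16159 in the saline libraries, without overlap. The mean difference was -3492 genes (exact two-sided permutation test over libraries, p = 0.0571, the smallest that 4 against 3 libraries allow, so this test cannot reach 0.05). Seizure libraries were less alike, with correlations of log2 CPM between 0.824 and 0.926, than saline libraries, with correlations between 0.967 and 0.983. Between the groups the correlations ran from 0.828 to 0.956. Xist exceeded 50 CPM in all 7 libraries and the summed Y-linked transcripts in all but saline replicate 3.

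Few genes passed the test, and all of them were lower after seizure. Of 18867 genes tested with edgeR's quasi-likelihood test, 0 were higher and 7 lower at a Benjamini-Hochberg adjusted p under 0.05, which is 0.0371% of genes. An unadjusted p under 0.05 was reached by 633 genes on the higher side (3.36%) and 1593 on the lower side (8.44%). DESeq2 called 40 higher and 234 lower, and limma-voom 23 higher and 230 lower. The 7 genes were Itgal, Cd38, Saa3, Adam33, Rftn1, Gpr18 and the unnamed gene ENSMUSG00000121482. In every one of them the 3 saline libraries lay above the 4 seizure libraries, and 6 of the 7 did not reach 5 CPM in any of these 7 libraries. The count of 7 was 0 without seizure replicate 4, 13 without seizure replicate 1 and 3 without seizure replicate 3. It was 2 without any 1 of the 3 saline libraries, and 0 when only the 7 libraries entered the fit.

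For 4 of the 7 genes the RefSeq table of promoters (GRCm38.p6) holds an entry. The 250 bases upstream of each start are shown because these genes moved in the same direction. Capitals mark GAGGAA, a core of the sites of the myeloid factor PU.1, and TTGCNNAA, a core of the sites of C/EBP factors, searched on both strands, with overlapping matches counted separately. Of 32851 promoters of the same length in that table, 23.3% hold GAGGAA and 9.56% hold TTGCNNAA. The windows are chr7:46715677-46715926 on the minus strand (Saa3), chr5:43868559-43868808 on the plus strand (Cd38), chr17:50190498-50190747 on the minus strand (Rftn1) and chr14:121915889-121916138 on the minus strand (Gpr18).
Saa3: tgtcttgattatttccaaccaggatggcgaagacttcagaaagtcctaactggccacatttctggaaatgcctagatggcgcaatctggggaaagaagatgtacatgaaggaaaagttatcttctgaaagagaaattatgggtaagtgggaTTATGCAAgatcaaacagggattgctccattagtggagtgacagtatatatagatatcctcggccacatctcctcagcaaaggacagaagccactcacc
Cd38: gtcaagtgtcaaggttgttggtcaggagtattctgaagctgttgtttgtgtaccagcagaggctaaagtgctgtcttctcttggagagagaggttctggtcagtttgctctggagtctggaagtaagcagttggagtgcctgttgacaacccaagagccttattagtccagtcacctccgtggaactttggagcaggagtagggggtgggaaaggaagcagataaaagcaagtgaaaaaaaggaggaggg
Rftn1: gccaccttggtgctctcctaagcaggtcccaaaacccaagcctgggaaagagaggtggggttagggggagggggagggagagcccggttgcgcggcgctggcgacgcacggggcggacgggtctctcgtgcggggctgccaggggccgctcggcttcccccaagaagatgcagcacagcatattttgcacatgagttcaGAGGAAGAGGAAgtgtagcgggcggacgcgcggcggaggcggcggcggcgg
Gpr18: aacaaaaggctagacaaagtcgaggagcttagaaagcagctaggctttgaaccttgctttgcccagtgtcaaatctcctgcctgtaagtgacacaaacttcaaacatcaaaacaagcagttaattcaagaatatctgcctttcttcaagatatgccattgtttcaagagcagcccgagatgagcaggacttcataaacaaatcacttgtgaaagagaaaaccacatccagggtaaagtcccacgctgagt
The Saa3 window held 1 match to TTGCNNAA, read on the opposite strand, and 0 to GAGGAA. Rftn1 held 2 adjoining matches to GAGGAA and 0 to TTGCNNAA. The Cd38 and Gpr18 windows held 0 matches to either.

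Saa3, an acute-phase serum amyloid A protein made by macrophages among other cells, was the most abundant of the 7. It had 0, 0.125, 0.0796 and 0.0953 CPM in the seizure libraries and 49.4, 19.999 and 19.0 CPM in the saline libraries. Its log2 fold change was -8.51 (SE 1.48, edgeR adjusted p = 0.037), on 7 counts in the 4 seizure libraries together and 3680 in the 3 saline libraries. The same split ran through the whole series. Saa3 lay between 0 and 2.72 CPM in all 13 seizure libraries of the 3 kinds of cells, and between 16.2 and 49.4 CPM in all 8 saline libraries. Its log2 fold change was -4.96 in MLC (adjusted p = 0.30) and -8.10 in NoTx (adjusted p = 0.069).

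Cd38, an enzyme of the cell surface that breaks down NAD, had 0.0982, 0, 0.186 and 0.0953 CPM in the seizure libraries, against 3.31, 1.69 and 1.61 CPM in the saline libraries. The log2 fold change was -4.22 (SE 0.61, edgeR adjusted p = 0.0059). Itgal, which encodes a subunit of the leukocyte integrin LFA-1, had 0, 0, 0.0265 and 0.0318 CPM in the seizure libraries and 2.45, 0.753 and 4.25 CPM in the saline libraries. It rested on 2 counts after seizure and 291 after saline, a ratio of scaled counts of 0.966% with an exact 95% counting interval from 0.116% to 3.52% (edgeR adjusted p = 0.0059). These were the 2 called genes that stayed called with a fold minimum of 2. They were also called when the test was limited to genes whose log2 CPM averaged 4 or more over the 21 libraries. That setting could not keep the other called genes, which averaged between 3.10 and 3.91 in the main fit. Itgal and Cd38 averaged 4.55 and 5.20 there, with their highest levels in MLC.

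The other 4 were at a like low level. Rftn1, a protein of membrane rafts, had 0.196, 0, 0.0531 and 0.0318 CPM after seizure and 3.89, 1.69 and 1.44 CPM after saline (log2 fold change -5.10, SE 0.90, edgeR adjusted p = 0.037). Gpr18, a G-protein-coupled receptor of leukocytes, had 0.0982, 0, 0.0531 and 0.0318 CPM after seizure and 2.75, 2.42 and 1.30 CPM after saline (log2 fold change -5.42, SE 0.97, edgeR adjusted p = 0.040). Neither gene overlapped between the groups. Adam33, a membrane metalloprotease, was at 0 counts in all 4 seizure libraries and at 12, 37 and 25 counts in the saline libraries (edgeR adjusted p = 0.037). ENSMUSG00000121482 had 4 counts after seizure, all in replicate 3, and 39, 54 and 59 counts after saline (log2 fold change -4.87, SE 0.89, edgeR adjusted p = 0.045).

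**Figure D1:**
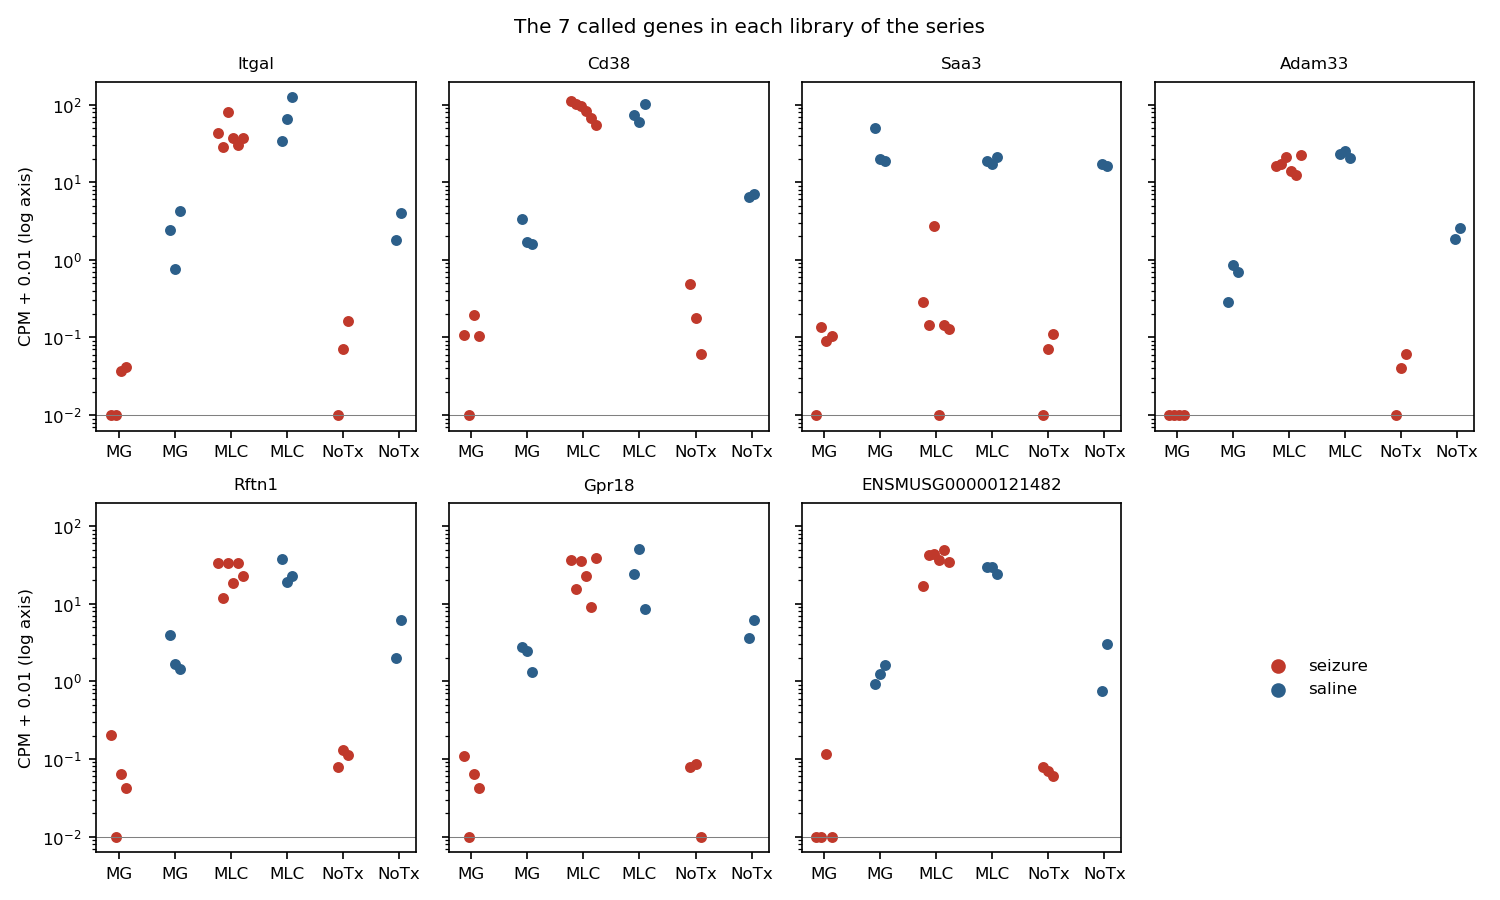
Each panel plots 1 of the 7 called genes as CPM + 0.01 on a log axis, a point per library, for transplanted microglia (MG), monocyte-derived cells (MLC) and untransplanted microglia (NoTx). Seizure libraries (red) stand left of saline libraries (blue), points on the grey line are at 0, and Saa3 is split by treatment in all 3 kinds of cells while Cd38 lies between 55.03 and 110.1 CPM in every MLC library.

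Apart from Saa3, the called genes were well above these levels in MLC of both treatments. Itgal lay between 28.3 and 79.6 CPM in the 6 seizure MLC libraries and between 34.1 and 124 CPM in the 3 saline MLC libraries, and Cd38 lay between 55.03 and 110.1 CPM in seizure MLC and between 60.1 and 103 CPM in saline MLC libraries. Their log2 fold changes in MLC were -0.81 for Itgal (adjusted p = 0.66) and 0.12 for Cd38 (adjusted p = 0.98). In NoTx the levels stood close to those of transplanted microglia. Itgal had 0, 0.0608 and 0.151 CPM in the seizure NoTx libraries and 1.82 and 3.99 CPM in the saline NoTx libraries (edgeR adjusted p = 0.019), and Cd38 had 0.484, 0.167 and 0.0505 CPM in seizure NoTx against 6.54 and 7.02 CPM in saline NoTx libraries (log2 fold change -4.94, adjusted p = 0.0025). Adam33, Rftn1 and Gpr18 were lower in NoTx as well (adjusted p = 0.028, 0.028 and 0.018).

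A wider set of such genes was read in the same libraries. It held the 26 genes that had at least 20 CPM in every seizure MLC library and at most 1 CPM in every seizure NoTx library. The choice used no library of transplanted microglia, but seizure NoTx shares treatment and batch with their seizure libraries. Genes low in that batch or treatment were therefore favoured. The 26 genes summed to 7.46, 7.20 and 5.25 CPM in seizure NoTx and to 90.3 and 213 CPM in saline NoTx libraries. In transplanted microglia their CPM summed to 178, 33.0, 383 and 42.1 in the seizure libraries, and to 119, 110 and 66.6 in the saline libraries, so the groups overlapped. The number of the 26 genes above 0.5 CPM was 11, 6, 8 and 4 in seizure libraries and 19, 16 and 13 in saline libraries. Of the 26, 6 lay lower in all 4 seizure libraries than in all 3 saline libraries and 0 higher, where 11.9% of all tested genes did the first and 4.02% the second. Itgal and Cd38 were among the 6.

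Markers of border macrophages, which line the vessels and meninges of the brain, had a lower summed level after seizure. The 20 genes of that list summed to between 84.0 and 149 CPM in seizure libraries and between 178 and 225 CPM in saline libraries, without overlap. Cd38, the 1 member called, is itself among the 7 genes above, and 0 of the 3 abundant members were without overlap (1 lay lower after GC-content correction). The scavenger receptor gene Stab1 had 84.7, 112, 30.6 and 34.2 CPM in seizure and 115, 103 and 179 CPM in saline libraries, which overlapped, while the defining markers Lyve1 and Cd163 reached at most 0.0466 and 0.303 CPM in any of the 7 libraries. The T and NK cell list summed to 0, 0, 14.3 and 0 CPM in seizure libraries and to 1.65, 1.35 and 1.25 CPM in saline libraries. Cd3e was at 0 in all 7 libraries, while Nkg7, a granule protein of cytotoxic lymphocytes, made up the sum in seizure replicate 3 (14.3 CPM). The neutrophil list summed to 197, 348, 362 and 126 CPM in seizure libraries and to 728, 445 and 781 CPM in saline libraries, without overlap. Almost all of it was Csf3r, the receptor of granulocyte colony-stimulating factor, with 190, 338, 356 and 122 CPM in seizure against 717, 441 and 777 CPM in saline libraries (log2 fold change -1.36, SE 0.69, edgeR adjusted p = 0.44). The neutrophil marker Ly6g was at 0 in all 7 libraries, and the granule protein Ngp reached at most 7.35 CPM. The part of other cells in the called genes was not tested. In libraries of sorted cells, fewer cells of a type and less RNA per cell cannot be told apart.

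Because few genes were called, the remaining genes are described by whether the libraries of the groups overlapped. Over the 6851 genes with a mean of at least 16 CPM, 533 (7.78%) lay higher in all 4 seizure libraries than in all 3 saline libraries, and 586 (8.55%) lay lower. Among the less abundant genes the shares were 1.88% higher and 13.9% lower, beside the smaller number of genes detected in every seizure library. The median log2 fold change was 0.13 over the abundant genes and -0.08 over all tested genes. No member of a gene list was called other than Itgal and Cd38, so the members below did not pass the edgeR test, and those without overlap had adjusted p values of 0.11 or more.

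Homeostatic genes were split between members near equal levels and members that were lower. Of 25 abundant members, 8 lay lower and 1 higher without overlap (7 and 2 after GC-content correction), and the median log2 fold change was -0.20. P2ry12 had 11654, 12643, 18369 and 18227 CPM in seizure libraries and 15425, 13285 and 11156 CPM in saline libraries, which overlapped. Csf1r had 2253, 4237, 2508 and 1146 CPM in seizure libraries against 5929, 5729 and 11794 CPM in saline libraries, without overlap (log2 fold change -1.62, SE 0.68, edgeR adjusted p = 0.40). Cx3cr1 had 3883, 4873, 4011 and 1749 CPM in seizure against 8050, 9088 and 10836 CPM in saline libraries, also without overlap (log2 fold change -1.36, SE 0.54, edgeR adjusted p = 0.40).

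Further members on the lower side were Tmem119, a microglial membrane protein (2882 ± 1997 CPM in seizure and 7668 ± 2060.5 CPM in saline libraries, SD, n = 4 and 3), the organic anion transporter Slco2b1 (645 ± 415 CPM in seizure and 2517 ± 1312 CPM in saline) and the adhesion receptor Adgrg1 (263 ± 152 CPM in seizure and 924 ± 475 CPM in saline). The member on the higher side was Rhob, a small GTPase, at 350 ± 133 CPM in seizure and 159 ± 32.6 CPM in saline libraries (log2 fold change 1.14, SE 0.32, edgeR adjusted p = 0.38). Sall1, a transcription factor of microglial identity, was at 243 ± 63.2 CPM in seizure and 342 ± 83.3 CPM in saline libraries, and its libraries overlapped. The level of Csf1r was highest in seizure replicate 2 and lowest in seizure replicate 4, and so was the GC trend. This trend was the Spearman correlation, over genes, of GC content with log2 CPM less the gene's mean over the 21 libraries. It is thus relative to the average library. It was 0.149, 0.412, 0.142 and -0.266 in the 4 seizure libraries and 0.325, 0.474 and 0.522 in the 3 saline libraries. Its part in the Csf1r values was not tested beyond the GC-content correction, after which both Csf1r and Cx3cr1 still did not overlap.

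**Figure D2:**
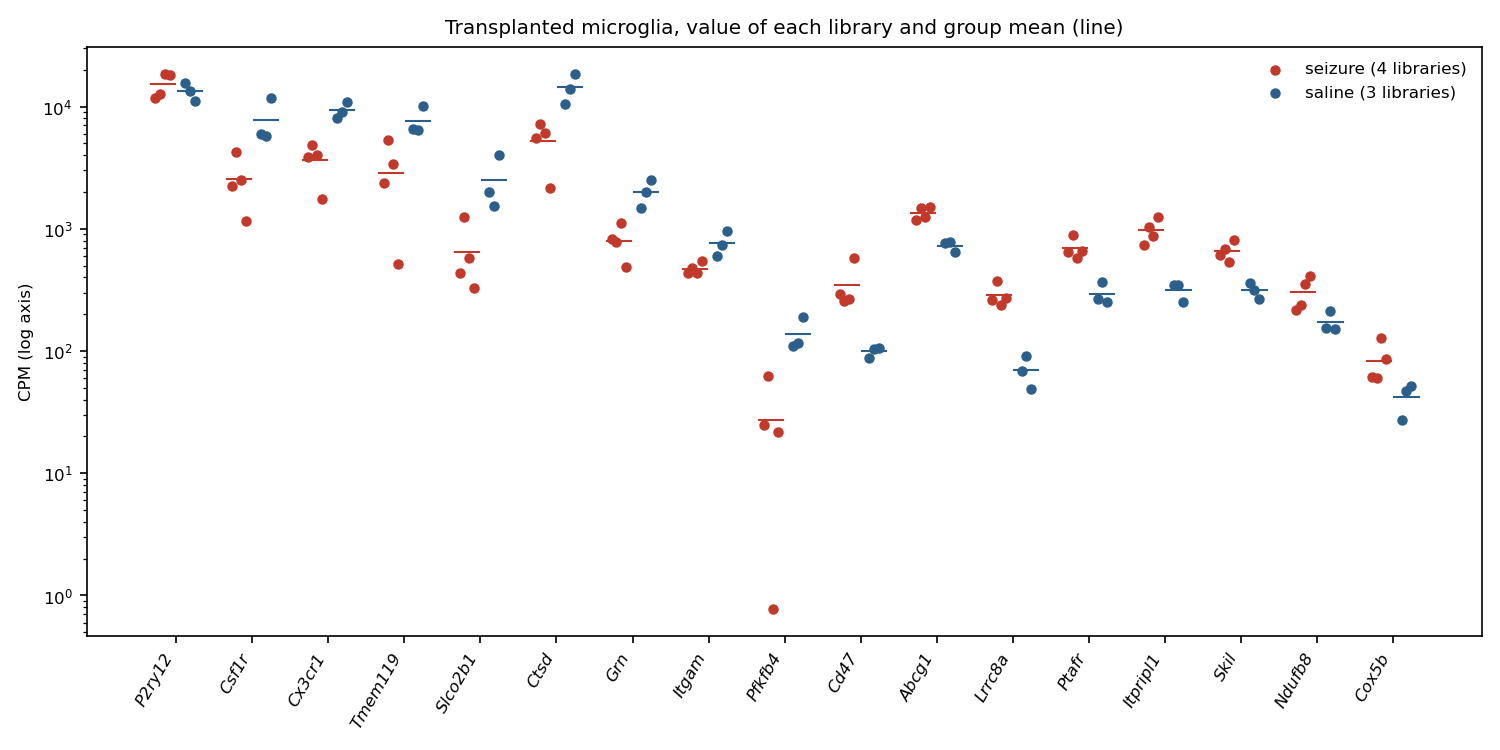
Points are the CPM of each library on a log axis for 17 named genes, with seizure libraries (red, 4) left of saline libraries (blue, 3) and a line at each group mean. P2ry12 overlaps between the groups, Csf1r to Pfkfb4 lie lower and Cd47 to Cox5b higher in all 4 seizure libraries.

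Genes of the lysosome overlapped between the groups or lay lower after seizure. Of 36 abundant lysosomal members, 11 lay lower and 0 higher without overlap (10 and 2 after GC-content correction). Ctsd, the aspartyl protease cathepsin D, had 5549, 7143, 6019 and 2143 CPM in seizure libraries and 10511, 13968 and 18522 CPM in saline libraries (log2 fold change -1.46, SE 0.64, edgeR adjusted p = 0.40). Grn, the progranulin precursor, had 819, 781, 1113 and 486 CPM in seizure against 1467, 1994 and 2497 CPM in saline libraries (log2 fold change -1.31, SE 0.47, edgeR adjusted p = 0.40). The lysosomal membrane protein Laptm5, the mannosidase Man2b1 and the saposin precursor Psap lay lower too, with log2 fold changes of -1.25, -1.10 and -0.99. Seizure replicate 4 was the lowest library for each of these 5 genes.

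Most receptor and adhesion genes overlapped between the groups, and of those that did not, more lay lower than higher. Of 19 abundant integrin and adhesion genes, 6 lay lower and 0 higher (6 and 2 after GC-content correction), among them the complement receptor chains Itgam (472 ± 55.4 CPM in seizure and 765 ± 189 CPM in saline libraries) and Itgb2 (759 ± 319 CPM in seizure and 1335 ± 136 CPM in saline) and the integrin activator Fermt3. Of 16 abundant complement and Fc receptor genes, 4 lay lower and 0 higher (3 and 0 after GC-content correction). The complement subunit C1qa was one of the 4 (log2 fold change -0.93, SE 0.64) but overlapped after GC-content correction. C1qb overlapped in both forms (-0.38, SE 0.48). Of 24 phagocytosis genes, 5 lay lower and 2 higher. Cd47, the ligand that inhibits phagocytosis, had 291, 255, 265 and 581 CPM in seizure libraries and 87.6, 103 and 106 CPM in saline libraries (log2 fold change 1.81, SE 0.55, edgeR adjusted p = 0.40). Among purinergic and neuron-sensing genes 2 of 11 lay lower. The ATP-degrading ectoenzyme Entpd1 was one of these, at 1242 ± 314 CPM in seizure and 2145 ± 85.6 CPM in saline libraries.

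Metabolic lists went in different directions. Of 40 abundant nuclear genes of oxidative phosphorylation, 6 lay higher and 0 lower (10 and 0 after GC-content correction), with a median log2 fold change of 0.49. Over the 42 tested members 12 had an unadjusted p under 0.05 on the higher side and 0 on the lower side. The complex I subunit Ndufb8 had 217, 239, 351 and 411 CPM in seizure libraries and 153, 214 and 151 CPM in saline libraries (log2 fold change 0.82, SE 0.34, edgeR adjusted p = 0.40), and it overlapped after GC-content correction. The cytochrome c oxidase subunit Cox5b had 61.7, 60.4, 127 and 85.6 CPM in seizure against 27.2, 47.5 and 51.7 CPM in saline libraries and did not overlap in either form. Of 19 glycolysis and hypoxia genes, 5 lay lower and 0 higher. Pfkfb3 and Pfkfb4, kinases that set the level of a glycolytic activator, had log2 fold changes of -1.59 and -2.35 (SE 0.69 and 0.89). Pfkfb4 was at 24.7, 61.9, 0.769 and 21.8 CPM in seizure and 110, 116 and 189 CPM in saline libraries. The 13 abundant transcripts encoded by mitochondria all overlapped, and of 78 ribosomal protein genes 2 lay higher and 0 lower. Of 15 genes of lipid uptake, efflux and storage, 3 lay lower and 1 higher. The higher one was Abcg1, a cholesterol exporter, with 1349 ± 166 CPM in seizure and 727 ± 74.5 CPM in saline libraries (log2 fold change 0.89, SE 0.38).

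Signalling and transcription factor genes made up most of the remaining members on the higher side. Of 18 abundant TGF-beta genes, 4 lay higher and 1 lower (3 and 1 after GC-content correction). Skil, a repressor of SMAD signalling, had 605, 688, 533 and 815 CPM in seizure libraries and 362, 318 and 265 CPM in saline libraries (log2 fold change 1.07, SE 0.58), and the ubiquitin ligase Smurf2 and the receptor Bmpr2 had log2 fold changes of 1.30 and 1.27. After GC-content correction Bmpr2 overlapped. Of 24 myeloid transcription factors, 3 lay higher and 4 lower. Among the higher ones were Runx1 (74.3 ± 33.6 CPM in seizure and 38.0 ± 7.56 CPM in saline libraries) and Cebpa, and Etv5 was among the lower ones (log2 fold change -1.14, SE 0.47). Of 12 abundant immediate early genes, 3 lay higher and 2 lower. The higher ones were Jun (29.7, 37.5, 30.5 and 93.6 CPM in seizure and 14.7, 24.8 and 12.1 CPM in saline libraries), Ier5 and Btg1. Fos, an early marker of cell activation, had 73.1, 48.0, 28.7 and 108 CPM in seizure against 29.3, 23.7 and 24.5 CPM in saline libraries, which overlapped.

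Inflammatory transcripts were low, overlapped between the groups or lay lower after seizure. The cytokine gene Il1b had 5.11, 0, 0 and 13.6 CPM in seizure libraries and 0.862, 1.87 and 2.30 CPM in saline libraries, and Tnf had 6.29, 0, 1.11 and 0.254 CPM in seizure against 6.01, 4.40 and 3.50 CPM in saline libraries. Of 21 abundant inflammatory and NF-kB genes, 4 lay lower and 0 higher. Icam1, an adhesion molecule induced by inflammation, had 133, 124, 97.3 and 36.8 CPM in seizure libraries and 216, 275 and 368 CPM in saline libraries (log2 fold change -1.55, SE 0.49, edgeR adjusted p = 0.40). The chemokine Ccl2 was at 54.2, 25.9, 161 and 150 CPM in seizure libraries and at 25.9, 39.95 and 19.7 CPM in saline libraries (log2 fold change 1.78, SE 0.68, edgeR adjusted p = 0.40). Of 21 abundant genes of disease-associated microglia, 1 lay lower and 0 higher, and Apoe, Clec7a and Trem2 all overlapped. Among 9 abundant genes of the cell cycle 1, Ccnd1, a cyclin that starts division, lay lower. The proliferation marker Mki67 had 5.21, 0.249, 0.0265 and 0.0635 CPM in seizure libraries and 1.65, 7.75 and 0 CPM in saline libraries. Of the 40 less abundant cell-cycle genes 7 lay lower and 0 higher without overlap, beside 13.9% and 1.88% of all less abundant genes. Of all 49 tested, 7 had an unadjusted edgeR p under 0.05 on the lower side and 0 on the higher side. Over all tested genes those shares were 8.44% and 3.36%. The spindle factor Tpx2 had 0, 0, 0.0531 and 0.0318 CPM in seizure against 1.37, 6.23 and 6.00 CPM in saline libraries, without overlap (edgeR adjusted p = 0.35, DESeq2 adjusted p = 0.00084, limma-voom adjusted p = 0.025).

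**Figure D3:**
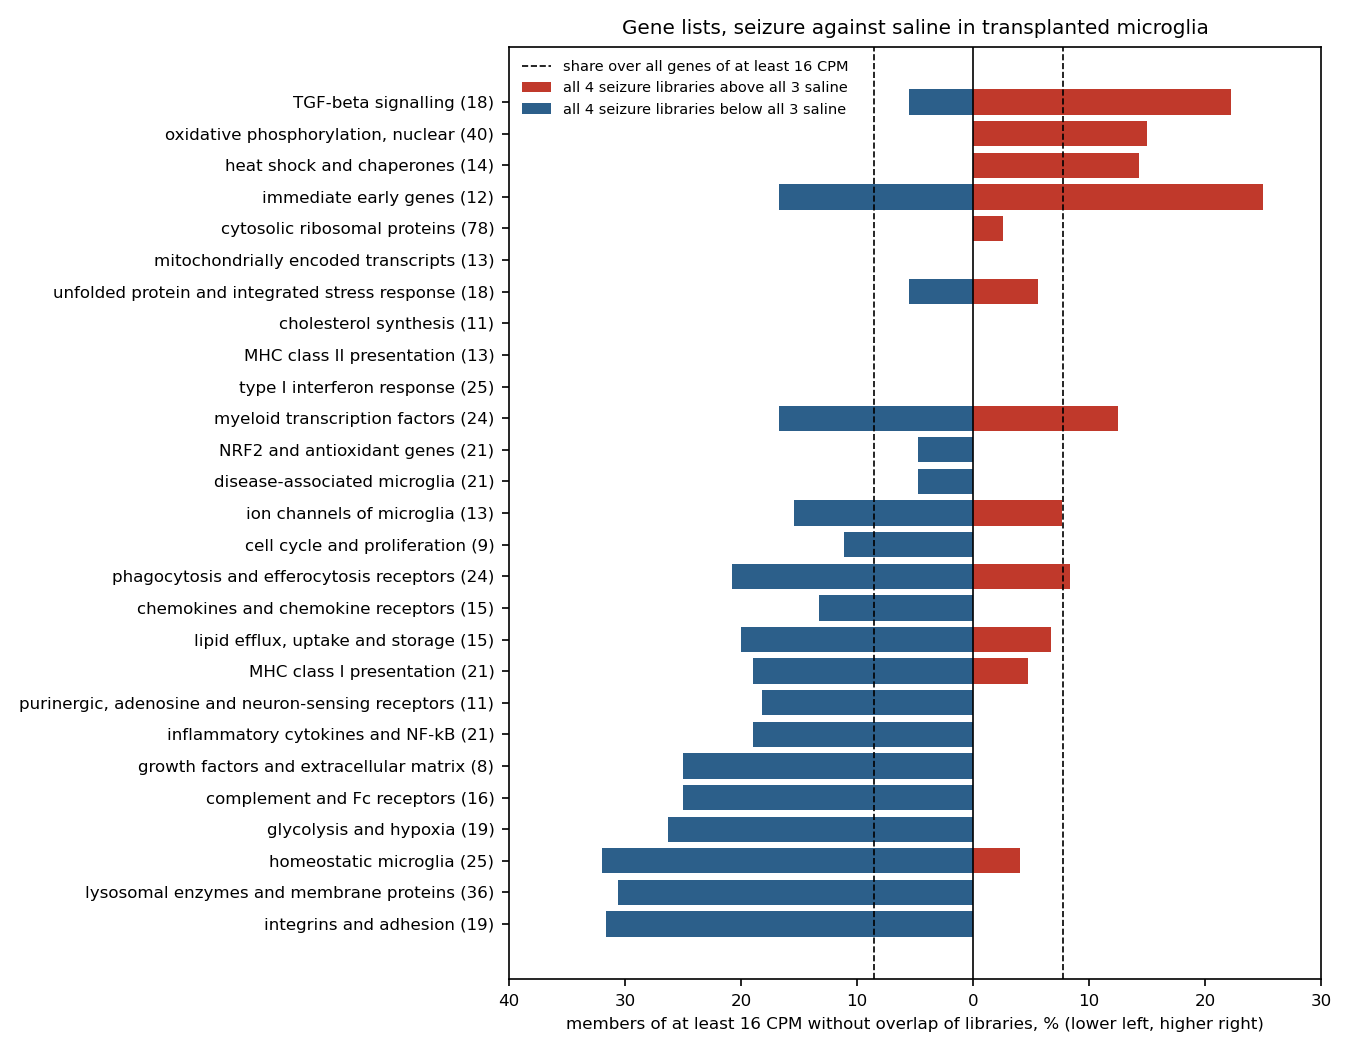
Bars give, for each list with at least 8 abundant members (number in brackets), the percentage of these members that lay lower (left, blue) or higher (right, red) in all 4 seizure libraries than in all 3 saline libraries. Dashed lines mark 8.55% lower and 7.78% higher over all abundant genes, and the integrin, lysosomal and homeostatic lists reach farthest to the left.

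Abundant interferon-response and class II antigen presentation genes overlapped between the treatments. Of these members, 0 of 25 type I interferon and 0 of 13 MHC class II genes were without overlap between seizure and saline. Of 21 abundant MHC class I presentation genes, 4 lay lower and 1 higher (4 and 2 after GC-content correction), beside 8.55% and 7.78% of all abundant genes. Tap1 had 32.3, 18.8, 32.3 and 8.77 CPM in seizure and 61.1, 60.2 and 101 CPM in saline libraries, without overlap (edgeR adjusted p = 0.40). Cd74, the invariant chain of class II, had 4550.4, 184, 9773 and 255 CPM in seizure replicates 1 to 4 and 1713, 1462 and 548 CPM in saline libraries. The class II chain H2-Ab1 had 1202, 57.6, 2676 and 64.6 CPM in seizure and 300, 318 and 219 CPM in saline libraries. Seizure replicates 1 and 3 thus lay above, and seizure replicates 2 and 4 below, every saline library. The class I heavy chain H2-K1 had 955, 245, 1216 and 178 CPM in seizure and 601, 728 and 726 CPM in saline libraries, and followed the same order. The chemokine Ccl12 had 426, 120, 842 and 281 CPM in seizure and 185, 262 and 99.2 CPM in saline libraries.

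Of the 20 less abundant interferon-response genes, 3 lay lower after seizure without overlap and 0 higher, beside the 13.9% and 1.88% of all less abundant genes given above. They are named here after their values were seen, and edgeR as fitted above called none of the 3. Oasl1, of the oligoadenylate synthetase family, was at 0 in all 4 seizure libraries and at 4.33, 3.51 and 2.53 CPM in saline libraries (edgeR adjusted p = 0.19). DESeq2 (adjusted p = 3.7e-05), limma-voom (adjusted p = 0.025) and edgeR without a low-count filter (adjusted p = 0.039) called it. Oas2, an oligoadenylate synthetase, had 0, 0, 0.345 and 0 CPM in seizure against 2.96, 2.42 and 6.11 CPM in saline libraries (edgeR adjusted p = 0.39, DESeq2 adjusted p = 0.0038, limma-voom adjusted p = 0.011). Ifi44, an interferon-induced gene, had 0, 0, 0.159 and 0.159 CPM in seizure against 1.63, 1.41 and 1.67 CPM in saline libraries (edgeR adjusted p = 0.29, DESeq2 adjusted p = 0.0013, limma-voom adjusted p = 0.034).

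Seizure replicates 1 and 3 carry the letter F in their library names and replicates 2 and 4 the letter M, and the sources used here do not say what the letters stand for. Both F libraries lay above both M libraries for 17 of the 25 abundant type I interferon genes, for 12 of 21 MHC class I genes and for 8 of 13 MHC class II genes. Over all 6851 abundant genes this was so for 14.2%, and the opposite order for 10.8%. The opposite order was seen in 0, 0 and 1 members of the 3 lists, and for 2 of the 25 homeostatic genes in either direction. This split was noticed in the data and rests on 2 libraries against 2, so no test is given. Depth was mixed over the letters, with 9.19 and 47.4 M counts in the F libraries and 7.64 and 34.1 M in the M libraries. The sum of the 26 MLC genes was 178 and 383 CPM in the F libraries and 33.0 and 42.1 CPM in the M libraries. The list of blood monocytes and dendritic cells summed to 1019 and 1902 CPM in the F libraries and to 921 and 1331 CPM in the M libraries. Almost all of it was Siglech, a member shared with the homeostatic microglia list, which reached 1901 CPM. The next highest member, Ccr2, reached at most 54.01 CPM in any of the 7 libraries. The T and NK cell list summed to 0 and 14.3 CPM in the F libraries and to 0 in both M libraries. Endothelial and mural markers summed to 13.8 and 62.4 CPM in the F libraries and to 20.1 and 4.07 CPM in the M libraries, with Pecam1, an endothelial adhesion molecule that some leukocytes share, at 62.3 CPM in seizure replicate 3. Their part in the split was not tested. Among the 6 seizure MLC libraries Cd74 was at 31744, 38479 and 36927 CPM with F and at 22616, 57187 and 10911 CPM with M, which overlapped. The libraries at 36927 and 57187 CPM also carry 11b in their names. Without these, both F libraries lay above both M libraries for Cd74 and H2-Ab1. For Ccl12 the same libraries overlapped, at 2630 and 3398 CPM with F and at 1822 and 4189 CPM with M. The seizure NoTx libraries overlapped as well for Cd74, at 333 and 658 CPM with F and at 357 CPM with M.

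**Figure D4:**
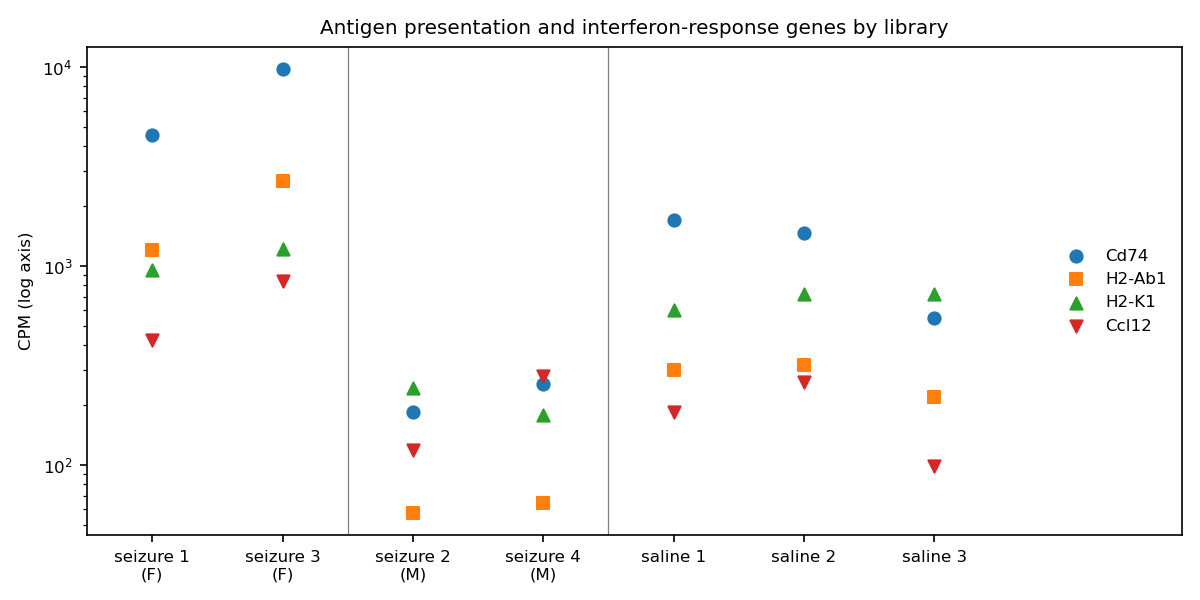
Points are CPM on a log axis for 4 genes in each of the 7 libraries, with the seizure libraries grouped by the letter in their names, left of the saline libraries. All 4 genes are higher in seizure replicates 1 and 3 than in seizure replicates 2 and 4, and for Cd74, H2-Ab1 and H2-K1 the saline libraries lie between them.

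A few abundant genes were called by the other tools although not by edgeR as fitted above. DESeq2 and limma-voom both called 112 genes, of which 10 were higher, and 9 of the 112 had a mean of at least 16 CPM, 7 of them higher. They are named here after their values were seen. Lrrc8a, the obligatory subunit of volume-regulated anion channels, had 264, 372, 236 and 273 CPM in seizure libraries and 68.0, 91.3 and 48.4 CPM in saline libraries, which leaves a gap between the groups wider than the spread within either (log2 fold change 2.05, SE 0.41, edgeR adjusted p = 0.11, DESeq2 adjusted p = 0.00057, limma-voom adjusted p = 0.0077). With no filter on low counts edgeR called it too (adjusted p = 0.012), as it did Itpripl1 (adjusted p = 0.025). Ptafr, the receptor of platelet-activating factor, had 641, 886, 575 and 662 CPM in seizure and 268, 365 and 251 CPM in saline libraries (log2 fold change 1.23, SE 0.30, edgeR adjusted p = 0.22). Itpripl1 had 739, 1043, 868 and 1238 CPM in seizure against 349, 349 and 249.8 CPM in saline libraries (log2 fold change 1.62, SE 0.38, edgeR adjusted p = 0.21). The others on the higher side were Rhob, N4bp2l1, Arfgef1 and Gm42908, and L3mbtl2 and G530011O06Rikx were on the lower side.

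The sign of a difference went with the base composition of the gene. Among abundant genes the median log2 fold change was 0.47 where GC content was under 40%, 0.35 from 40 to 45%, 0.15 from 45 to 50%, -0.17 from 50 to 55% and -0.36 above 55%. The share of genes that lay higher without overlap was 12.2% in the lowest bin and 3.53% in the highest, and the share that lay lower was 1.98% and 16.6%. Across 6807 genes the Spearman correlation of log2 fold change with GC content was -0.387, and -0.028 after a correction for GC content, a description across genes, which are not independent replicates. With that correction edgeR called 0 genes higher and 4 lower, and 7.27% of abundant genes lay higher and 8.83% lower without overlap. Lrrc8a, Ptafr and Itpripl1, with GC contents of 54.7, 50.01 and 49.97%, lay higher without overlap in both forms.

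**Figure D5:**
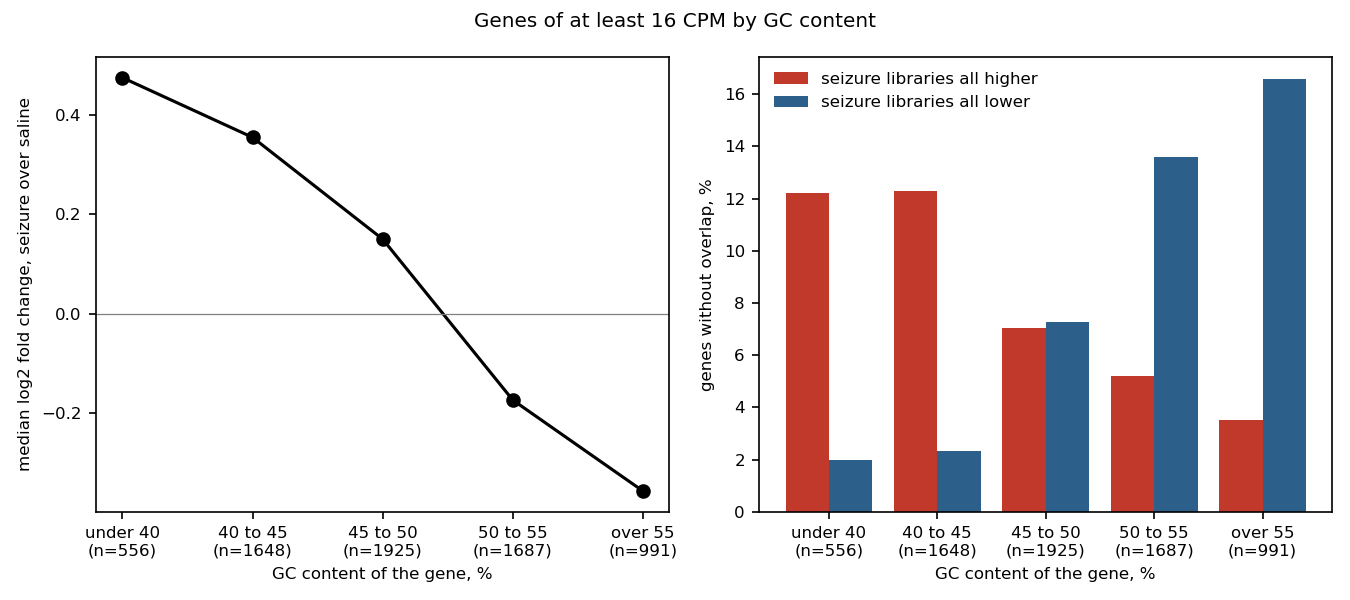
For abundant genes grouped by GC content (x axis, with the number of genes), the left panel plots the median log2 fold change of seizure over saline and the right panel the percentage of genes that lay higher (red) or lower (blue) in all 4 seizure libraries. The median goes down from 0.47 to -0.36 with GC content, and the share on the lower side goes up from 1.98% to 16.6%.

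Whether the change was particular to transplanted microglia was asked by testing its difference from the same change in the other cells. Against MLC, 0 of 18867 genes differed at an adjusted p under 0.05 in edgeR, with 1036 (5.49%) at an unadjusted p under 0.05, 143 called by DESeq2 and 8 by limma-voom. Seizure against saline within MLC itself gave 0 calls in edgeR, with 2236 genes (11.9%) at an unadjusted p under 0.05. Across the 6807 abundant genes, the log2 fold changes of transplanted microglia and MLC had a Spearman correlation of 0.713 (0.660 after GC-content correction). The comparisons share no library but share the split of batches and the sort from brain. Csf1r, Cx3cr1 and Ctsd had log2 fold changes of -2.02, -1.55 and -1.68 in MLC, beside -1.62, -1.36 and -1.46 in transplanted microglia.

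For untransplanted microglia the same correlation of log2 fold changes was negative. With NoTx it was -0.298 (-0.211 after GC-content correction), and the log2 fold changes there were 1.12 for Csf1r and 0.49 for Cx3cr1, with adjusted p values of 0.97 and 1. Lrrc8a had 139 ± 10.4 CPM in seizure NoTx and 255 ± 63.5 CPM in saline NoTx libraries (n = 3 and 2), and the difference between transplanted and untransplanted microglia was 2.92 on the log2 scale (SE 0.61, edgeR adjusted p = 0.26). Seizure against saline within NoTx itself gave 1 gene called higher (0.0053%) and 19 called lower (0.101%) in edgeR. The difference passed for 2 of 18867 genes (0.0106%, with 1345 genes, or 7.13%, at an unadjusted p under 0.05). Both averaged a log2 CPM under 4 over the 21 libraries, outside the rule for named genes, and were chosen after their values were seen. 4930523C07Rik had 9.63, 8.10, 8.86 and 8.01 CPM in seizure and 2.21, 4.90 and 4.36 CPM in saline libraries of transplanted microglia, while it was at 0.0433 ± 0.0377 CPM in seizure NoTx and 15.5 ± 8.94 CPM in saline NoTx libraries (difference 9.47, SE 1.40, edgeR adjusted p = 0.014). Gm37900 had a difference of 8.03 (SE 1.31, edgeR adjusted p = 0.032), with 0.0854 ± 0.0454 CPM in seizure NoTx and 13.2 ± 0.759 CPM in saline NoTx libraries. In transplanted microglia it had 27.7, 5.48, 12.4 and 10.7 CPM in seizure and 7.36, 6.75 and 8.33 CPM in saline libraries, which overlapped. Neither gene was called there (log2 fold changes 1.18 and 0.91, edgeR adjusted p = 0.58 and 0.69). In NoTx the log2 fold changes were -8.29 and -7.12, which made up most of both differences. The count of 2 was 7 without seizure replicate 2 of transplanted microglia, 1 without saline replicate 1, and 0 without saline replicate 2 or 3. Transplantation and genotype cannot be told apart in any comparison with NoTx.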

How the data were processed

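The authors deposited a table of estimated counts by gene, and these were rounded to whole numbers. Per the submitters' processing notes, the tools were FastQC 0.11.9, Trim Galore 0.6.7 with cutadapt 3.4, STAR 2.7.10a, featureCounts of Subread 2.4.5 and DESeq2 1.36.0, with the genome build GRCm39. Which step left fractions in the counts is not stated there. Of the values above 0, between 37.5% and 45.4% per library were not whole. Per the labels' protocols, sorted cells gave RNA for low-input libraries, which need PCR. Molecular identifiers are not mentioned, so intervals cover counting error only. Whether same-group samples came from separate animals is not stated beyond the label of biological replicate, so p values measure the spread between these samples, which may be technical. Counting by strand is not stated, and overlapping or near-identical genes may share reads.

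Of 57180 genes, 18867 passed the filter of edgeR by group. All 21 libraries entered a quasi-likelihood fit (TMM, robust) with 6 group means in R 4.3.3 with edgeR 4.0.16. P values were adjusted over all tested genes, with a limit of 0.05 and no fold minimum. The SE is the absolute log2 fold change over the square root of F. Abundant means a mean of at least 16 CPM over the 7 libraries, and without overlap means every seizure library above, or below, every saline library. GC content was taken by gene ID from GENCODE annotation of GRCm38 for 95.4% of tested genes. For the overlap counts log2 CPM was taken with a prior of 2 counts scaled to library size. A smooth trend on GC content was removed per library, fitted to each gene's deviation from its mean over the 21 libraries. Promoters are from RefSeq.

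Named genes are Csf1r and Cx3cr1, the 15 largest calls in each direction whose log2 CPM averaged 4 or more without overlap, list members, the 8 largest called differences between kinds of cells, the 10 genes of highest mean, and the 8 called genes of highest mean per direction. Others are said to be chosen after their values were seen. The comparison, the gene lists and this rule were chosen with earlier results of these data known. Other fits used DESeq2 1.42.0, limma 3.58.1, other scaling, filters, thinning to 7.64 M counts, and each library left out. The scripts were tested on simulated data. No 2 libraries of a group agreed within sampling noise (chi-square per degree of freedom of 56.6 or more). Some list members are counted but not reported here by name.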

Additional observations from a re-analysis of the deposited data

Results flagged for a closer look

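In 10 of 88 genes screened, 1 of the 4 seizure libraries stood apart from the other 3 by Dixon's criterion. Chance meets it in about 1 in 20 groups of continuous values. Where the other 3 libraries were at 0, any count met it, so that rate does not hold there. The 88 are genes named above, and many were chosen with their values known. Seizure replicate 4 was low for the lysosomal precursor Psap (1100 CPM) and the ectoenzyme Entpd1 (773 CPM). It was high for Cd47 (581 CPM), Jun (93.6 CPM) and Btg1 (795 CPM). Seizure replicate 3 was high for ENSMUSG00000121482 (0.106 CPM) and the interferon-induced gene Oas2 (0.345 CPM), both at 0 in the other seizure libraries. The lymphocyte gene Nkg7 was at 14.3 CPM in seizure replicate 3 and the border macrophage marker Lyve1 at 0.0318 CPM in seizure replicate 4, with the other seizure libraries at 0. Seizure replicate 1 was high for Mki67 (5.21 CPM). The change after seizure differed between transplanted and untransplanted microglia for 4930523C07Rik (9.47 on the log2 scale) and Gm37900 (8.03), by the test of the difference itself. Most of both differences lay in NoTx (log2 fold changes -8.29 and -7.12), and neither gene was called in transplanted microglia.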

How the results depend on the processing

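The counts of genes higher and lower after seizure (0 and 7) were 40 and 234 with DESeq2, 23 and 230 with limma-voom, 2 and 14 without a low-count filter, 0 and 2 at an average log2 CPM of at least 4 or with a fold minimum of 2, 0 and 4 with GC-content correction, 0 and 8 with RLE scaling, and 0 and 0 with only the 7 libraries, with thinning, or without seizure replicates 3 and 4. Leaving out 1 library gave 0 higher in each case and from 0 to 13 lower. The replicate numbers shared by the groups did not pair the libraries (correlations of deviations 0.047, -0.281 and 0.047), and the number as a replicate block gave 3 higher, 2 lower, a median log2 fold change of -0.29 and 0 genes that differed from NoTx. Under that block Il1b reversed to -1.57, and Lrrc8a (adjusted p = 0.021) and Itpripl1 (0.039) were called. The difference from MLC (0) was 143 with DESeq2 and 8 with limma-voom, and 0 in every other fit run. The difference from NoTx (2) was 189 with DESeq2, 27 with limma-voom, 4 without filter or without seizure replicates 3 and 4, 0 at the higher abundance limit, 1 with GC-content correction or thinning, and from 0 to 7 with 1 library left out. The median log2 fold change of all tested genes (-0.08) was -0.11 with DESeq2, -0.25 with limma-voom, -0.12 with RLE scaling, 0 without a filter, 0.036 at the higher abundance limit, 0.05 with only the 7 libraries, -0.10 with GC-content correction, -0.19 without seizure replicates 3 and 4, and from -0.15 to 0 with 1 library left out. Uncalled genes that changed sign were Cd74 (-0.17), Il1b (-1.36), Lyve1 (0.62), Nkg7 (-2.05) and Pecam1 (-0.53) with limma-voom, P2ry12 (-0.20) and H2-K1 (0.20) with GC-content correction, and P2ry12 (-0.13), Clec7a (-0.20), Nkg7 (-6.16) and Pecam1 (-0.52) without seizure replicates 3 and 4. With 1 library left out H2-K1 ran from -0.58 to 0.23, Mki67 from -4.98 to 0.74, Nkg7 from -6.16 to 3.96 and Pecam1 from -0.93 to 0.68. The causes were not tested. Of the 7 calls, 6 held with DESeq2, which gave Saa3 a log2 fold change of -8.68 and no adjusted p, and 7 with limma-voom.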
